A study of Mus musculus with 4 samples.

Results

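The genes described here are 35 immediate early genes, taken by symbol out of 32285 genes. The count matrices are those of a single-cell RNA sequencing study of dystrophic mouse muscle. The list was chosen with earlier results of these data known. Each of the 35 had UMIs (unique molecular identifiers, 1 per captured RNA molecule) in each of the 4 libraries. Immediate early genes are transcribed within minutes of a signal, without the need for new protein, because the factors that switch them on (the serum response factor with its partners, and CREB) are already in the nucleus and are activated by kinases. Many of the products are themselves transcription factors of the AP-1, EGR, NR4A and KLF families, and others are feedback inhibitors such as phosphatases of the MAP kinases and proteins that destroy short-lived mRNAs. Mincing, enzyme digestion and warming of a tissue are known to act on these genes before a cell is captured.

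The libraries were made from mononuclear cells of skeletal muscle of mice aged 14 weeks, using 10x Genomics 3-prime single-cell chemistry. All mice carried mdx5cv, an allele of the dystrophin gene that causes muscular dystrophy, so no library comes from healthy muscle. A pair of libraries came from mdx5cv mice (quadriceps and diaphragm), and the other pair from mdx5cv mice that also lacked Ccr2 (mdx5cv/Ccr2-/-), the receptor with which inflammatory monocytes leave the bone marrow and enter injured tissue. There was 1 library per group. The sources used here do not give the number of animals pooled, the digestion or the order in which the muscles were processed, and cell viability was about 80% per the labels for all samples together. A difference between muscles or genotypes therefore cannot be told apart from a difference between single libraries and their preparation. No p-value is given anywhere. Every interval of a level, ratio or share below is a 95% interval for counting error only. Bounds printed with a median are the median of the genes' bounds and not a 95% interval of that median.

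The libraries held between 5839 and 13175 barcodes, and 28569 cells passed the filters, with a median of 5857 to 8962 UMIs per cell. Cells were put into classes by their UMIs of 7 marker genes per class, and a class name with "-like" rests on those RNA markers alone. The macrophage-like (424 to 1683 cells per library), FAP/fibroblast-like (985 to 6410) and endothelial-like (863 to 2326) classes each held at least 100 cells in all 4 libraries and carry the comparisons. FAPs are the fibro-adipogenic progenitors of muscle. All 7 markers of each of the 3 classes were present in that class in each library. Examples are C1qa at 2835 to 4504 CPM (UMIs scaled to a total of 1000000) in macrophage-like, Pdgfra at 314 to 519 in FAP/fibroblast-like and Pecam1 at 951 to 1452 in endothelial-like cells. The cells were chosen by these same markers, so their presence does not check the class names. Ccr2 itself was at 253 and 137 CPM in the mdx5cv quadriceps and diaphragm libraries and at 15.5 and 8.55 in the mdx5cv/Ccr2-/- ones. The deleted part of Ccr2 is not stated, so the remaining UMIs check nothing about the deletion. Across libraries, 104 barcode sequences occurred more than once, 38 to 72 in a single library. Cells were shallower in the diaphragm than in the quadriceps within each of the 3 classes, for example a median of 6761 against 12670 UMIs in mdx5cv macrophage-like cells, and values at equal depth are given with the results.

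RefSeq promoter windows (GRCm38.p6, 250 bases before to 50 after the annotated start) were found for 30 of the 35 genes and searched on both strands for the binding motifs of factors known to drive immediate early transcription. The cAMP response element TGACGTCA, the site of CREB, lay in the windows of 4 of the 30 genes (13.3%: Btg2, Dusp1, Maff and Ppp1r15a), against 2.03% of 27025 genes. The CArG box of the serum response factor lay in 3 (10.0%: Dusp5, Egr2 and Zfp36), against 1.81% of genes. The EGR site GCGGGGGCG lay in 8 (26.7%: Dusp2, Fosb, Fosl2, Klf2, Klf4, Nr4a1, Socs3 and Zfp36), against 3.31%, and the TATA motif TATAAA in 8 (26.7%), against 15.7%. The AP-1 site TGANTCA lay in 2 (6.67%), against 8.97%, and the heat shock element GAANNTTCNNGAA in 0, against 0.662%. The motifs searched do not overlap one another in the printed windows. A match describes letters only, and a site farther upstream, such as an enhancer, is outside these windows.

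The 250 bases before the start are shown for 5 genes that were higher in the diaphragm in most settings below and that hold a CREB, CArG, EGR or TATA match there. Each is written 5′ to 3′ on the strand of the gene, the last base lies next to the start, and capitals mark the matches.
Fos (chr12:85473640-85473889, plus strand; TATAAA beginning 33 bases before the start): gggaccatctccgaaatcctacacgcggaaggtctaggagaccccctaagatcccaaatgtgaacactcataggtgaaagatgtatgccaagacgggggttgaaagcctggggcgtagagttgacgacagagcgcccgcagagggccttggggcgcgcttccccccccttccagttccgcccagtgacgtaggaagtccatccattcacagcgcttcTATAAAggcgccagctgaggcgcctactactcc
Dusp1 (chr17:26508473-26508722, minus strand; TGACGTCA beginning 143 bases before the start): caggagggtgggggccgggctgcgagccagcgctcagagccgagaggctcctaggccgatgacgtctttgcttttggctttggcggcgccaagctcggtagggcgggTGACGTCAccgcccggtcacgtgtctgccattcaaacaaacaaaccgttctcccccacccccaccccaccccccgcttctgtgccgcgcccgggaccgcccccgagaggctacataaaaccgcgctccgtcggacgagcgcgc
Btg2 (chr1:134079156-134079405, minus strand; TGACGTCA beginning 166 bases before the start): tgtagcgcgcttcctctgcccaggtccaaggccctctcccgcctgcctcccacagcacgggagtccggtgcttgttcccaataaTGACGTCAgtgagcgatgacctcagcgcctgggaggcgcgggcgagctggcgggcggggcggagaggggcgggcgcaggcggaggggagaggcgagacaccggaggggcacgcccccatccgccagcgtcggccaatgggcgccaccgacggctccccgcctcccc
Ppp1r15a (chr7:45526269-45526518, minus strand; TGACGTCA beginning 12 bases before the start): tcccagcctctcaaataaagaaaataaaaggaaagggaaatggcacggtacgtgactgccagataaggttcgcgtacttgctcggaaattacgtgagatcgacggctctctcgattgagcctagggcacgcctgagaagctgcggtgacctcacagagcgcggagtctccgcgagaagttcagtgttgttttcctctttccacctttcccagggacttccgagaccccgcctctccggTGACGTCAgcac
Zfp36 (chr7:28379229-28379478, minus strand; EGR site beginning 105 and CArG box beginning 58 bases before the start): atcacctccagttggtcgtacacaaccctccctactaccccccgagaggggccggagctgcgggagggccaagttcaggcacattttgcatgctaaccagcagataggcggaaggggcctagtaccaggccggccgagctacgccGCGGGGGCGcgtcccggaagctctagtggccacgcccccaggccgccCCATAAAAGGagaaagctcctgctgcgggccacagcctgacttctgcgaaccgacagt

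The first question was whether the genes differ between the muscles. Their summed level was higher in the diaphragm library than in the quadriceps library of the same genotype in all 3 classes, in both genotypes. The 35 genes together took 6162 and 4751 CPM in macrophage-like cells of the mdx5cv and mdx5cv/Ccr2-/- quadriceps, and 14206 and 12810 in the diaphragm. FAP/fibroblast-like cells had sums of 3034 and 3195 in quadriceps, against 8652 and 6353 in diaphragm. Endothelial-like cells had the smallest gap, from 5064 and 4514 to 8047 and 6070. Both diaphragm values lay above both quadriceps values in each class.

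Gene by gene, ratios were taken between the CPM of the summed cells, and a gene counted as measured in a comparison at a mean of at least 20 CPM and at least 50 UMIs. It was called 2-fold higher when (CPM + 5) in the diaphragm was at least 2 times (CPM + 5) in the quadriceps. The reverse case was called 2-fold lower, and the comparisons between genotypes used the same rule. A gene can reach the mean of 20 CPM through its diaphragm value alone. Among others, Gadd45b in endothelial-like cells and Atf3 and Nr4a1 in FAP/fibroblast-like cells did so in both genotypes. In mdx5cv, 21 of 29 measured members were called higher in macrophage-like cells (background: 1.44% of 5288 measured genes), 17 of 28 in FAP/fibroblast-like cells (2.46% of 5772) and 8 of 26 in endothelial-like cells (2.53% of 6039). The median log2 ratios of the members were 1.24, 1.31 and 0.73, against medians of all genes between -0.03 and 0.02. No member was called lower, where the background was 0.435%, 1.85% and 0.431%. In mdx5cv/Ccr2-/-, 19 of 29 were called higher in macrophage-like (background 2.19%), 12 of 28 in FAP/fibroblast-like (2.86%) and 5 of 25 in endothelial-like cells (1.05%), with median log2 ratios of 1.44, 0.86 and 0.55. The endothelial-like count of 5 was 2 with the mean of single-cell CPM and with cells thinned to 2000 UMIs, and 11 at a fold of 1.5. Again none was called lower, with backgrounds of 1.03%, 1.82% and 0.550%. When cells were thinned to 2000 UMIs, 1 member was lower in FAP/fibroblast-like cells.

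These 6 settings, 3 classes in each of 2 genotypes, rest on 2 separate pairs of libraries. In each setting alone, 1.05% to 2.86% of all measured genes were called higher. The share of all measured genes called in several settings is not given here. 25 members were measured in all 6. Fos, Junb and Ppp1r15a were called higher in all 6, Atf3, Egr1 and Zfp36 in 5, and Jun, Nr4a1, Dusp1, Btg2, Ier3 and Phlda1 in 4. Fosb, Klf2, Klf4 and Gadd45b were called in 3, Jund, Ier2, Socs3 and Rhob in 2, and Klf6, Dusp2, Zfp36l1, Ier5 and Gadd45g in 1. Of the 10 members never called, Maff, Nr4a2, Nr4a3, Dusp5 and Csrnp1 passed the minimum in none of the 6, so nothing is known of their ratio at this threshold, and Fosl2, Egr2, Egr3, Klf10 and Btg1 passed it at least once.

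**Figure D1:**
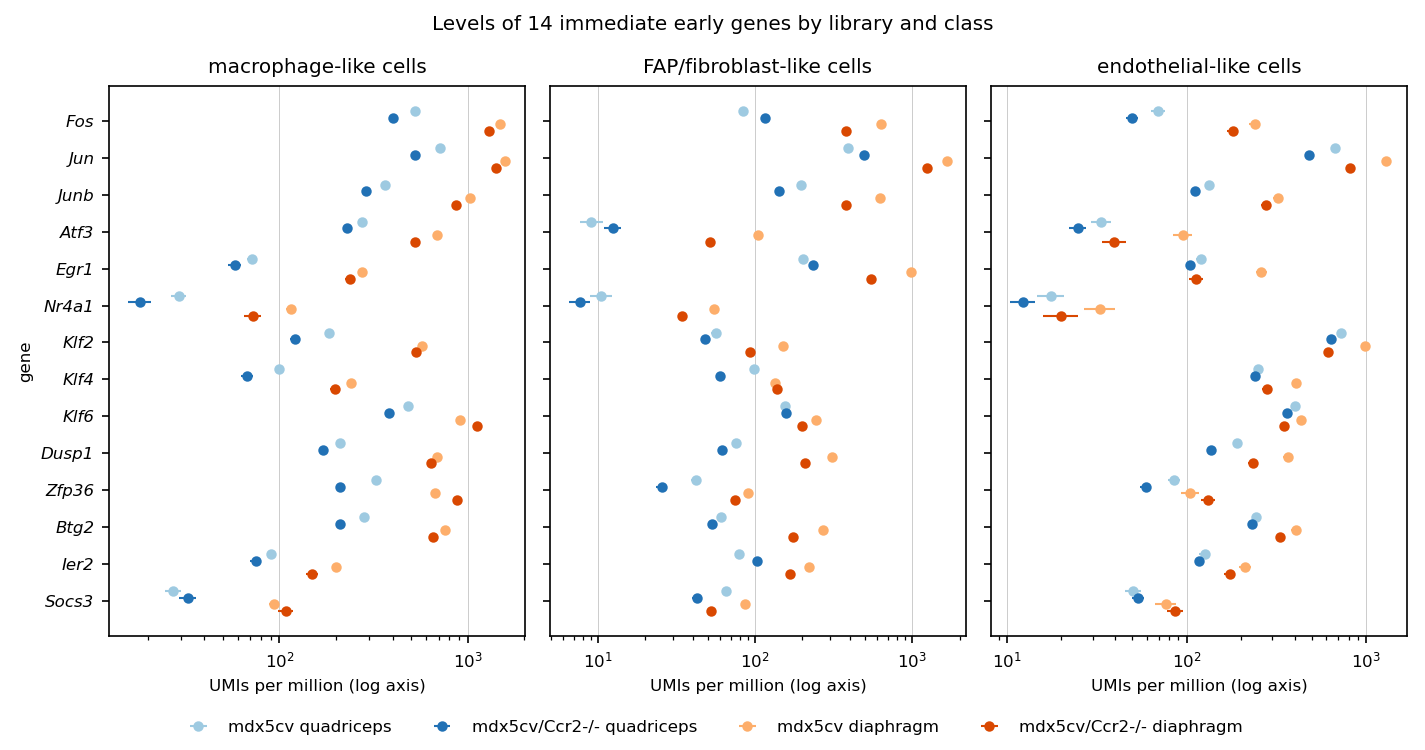
CPM (log axis) of 14 immediate early genes in macrophage-like, FAP/fibroblast-like and endothelial-like cells. Each point is 1 library (blue quadriceps, orange diaphragm, darker mdx5cv/Ccr2-/-) with its 95% Poisson interval. In macrophage-like cells the diaphragm points of the genes shown lie to the right of the quadriceps points. Egr2, which is not shown, overlaps between the muscles there, and the share of all genes that separate is not given.

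AP-1 is a dimer of a Jun protein with a Fos or ATF protein, and the list holds 8 AP-1 genes. Wherever 4 values follow, the quadriceps libraries come first and the diaphragm libraries last, each time mdx5cv before mdx5cv/Ccr2-/-. The share of all genes whose muscles do not overlap is not given, so such statements describe the named gene only. Fos was at 522, 401, 1492 and 1302 CPM in macrophage-like cells, at 83.4, 115, 634 and 379 in FAP/fibroblast-like cells and at 69.5, 49.8, 240 and 181 in endothelial-like cells. The groups did not overlap in any class, and the diaphragm to quadriceps ratio in mdx5cv was 2.86 (2.78 to 2.93), 7.61 (7.20 to 8.04) and 3.45 (3.07 to 3.87). In mdx5cv/Ccr2-/- the Fos ratios were 3.25 (3.12 to 3.37), 3.30 (3.16 to 3.44) and 3.62 (3.25 to 4.04), which lie closer to one another than the mdx5cv ones.

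Jun is the usual partner of Fos. It stood at 713, 522, 1572 and 1421 CPM in macrophage-like, 387, 491, 1649 and 1239 in FAP/fibroblast-like and 668, 480, 1286 and 811 in endothelial-like cells. Junb, a relative that can antagonise Jun, was at 362, 289, 1030 and 867 CPM, then 195, 141, 618 and 379, then 134, 112, 322 and 277 in the same classes. Neither gene had overlapping muscles in any class, although the 2 endothelial-like ratios of Jun (1.93 and 1.69) were below the 2-fold line.

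Atf3, a stress-induced repressor, had the largest diaphragm to quadriceps ratio among members measured in the 3 classes. It was at 9.09, 12.5, 105 and 51.6 CPM in FAP/fibroblast-like cells, a ratio of 11.5 (9.76 to 13.7) in mdx5cv and 4.14 (3.64 to 4.71) in mdx5cv/Ccr2-/-. In that class Atf3 passed the minimum level only through its diaphragm values, so its ratio and rank there depend on that filter. In macrophage-like cells, where it started higher, Atf3 was at 275, 228, 691 and 528 CPM, and in endothelial-like cells at 33.6, 24.8, 95.4 and 39.6. Among all measured genes of FAP/fibroblast-like cells in mdx5cv, Atf3 ranked 3 and Fos 4 of 5772 from the highest diaphragm to quadriceps ratio. Fosb and Jund, further AP-1 subunits, had ratios between 1.40 and 4.33 over the 6 settings. Fosl2 did not follow: its ratios were 2.01 and 1.95 in macrophage-like cells, 1.01 and 0.770 in FAP/fibroblast-like and 0.951 and 0.691 in endothelial-like cells. Maff, a small Maf protein, was below the minimum level in all 6 settings.

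**Figure D2:**
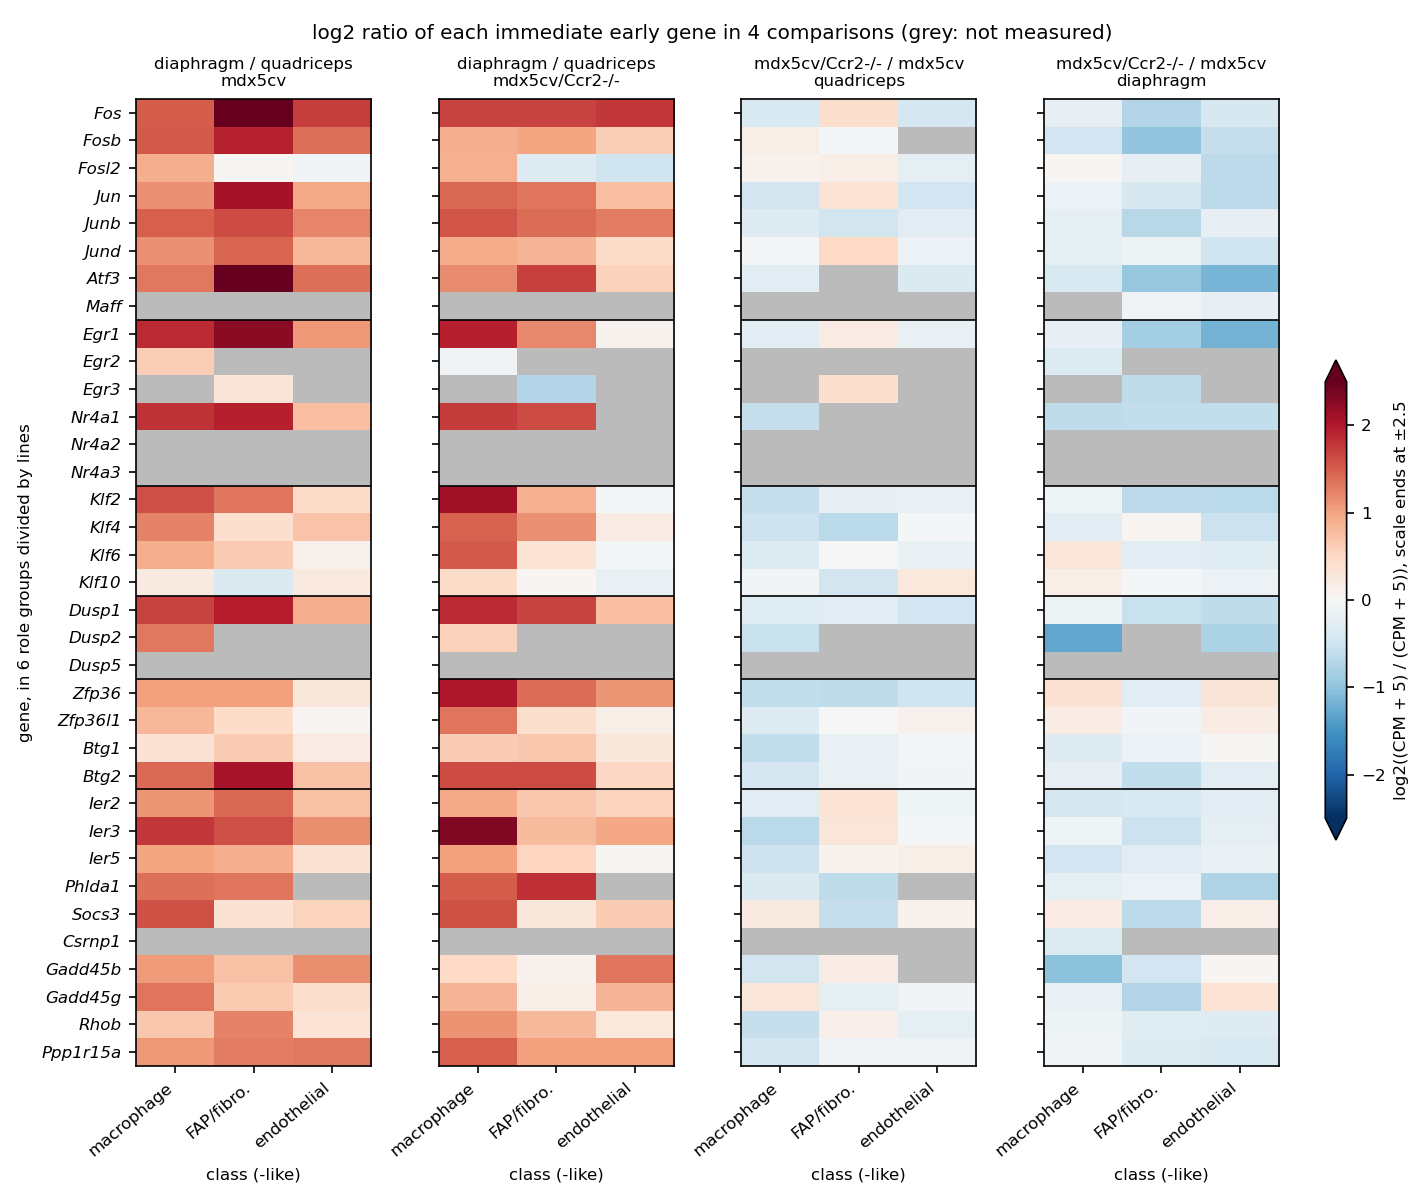
log2((CPM + 5)/(CPM + 5)) of the 35 genes, in rows grouped by role, in 3 classes (columns) and 4 comparisons (panels). Red is higher in the diaphragm (left panels) or in mdx5cv/Ccr2-/- (right panels), grey is below the minimum level, and the colour scale ends at ±2.5, which Fos and Atf3 in FAP/fibroblast-like cells of mdx5cv exceed.

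EGR factors are zinc finger activators, and NR4A factors are nuclear receptors whose activity follows their amount. Egr1 was at 71.4, 57.9, 274 and 236 CPM in macrophage-like cells and at 202, 235, 986 and 545 in FAP/fibroblast-like cells. The muscles were fully apart in both classes, with ratios of 3.84 (3.58 to 4.12) and 4.08 (3.70 to 4.50) in macrophage-like and 4.88 (4.71 to 5.06) and 2.32 (2.25 to 2.39) in FAP/fibroblast-like cells. In endothelial-like cells Egr1 was at 120, 105, 261 and 113 CPM, so its value in the mdx5cv/Ccr2-/- diaphragm lay between those of the quadriceps libraries, and the ratio there was 1.07 (0.959 to 1.19). Nr4a1 was at 29.2, 18.1, 115 and 72.1 CPM in macrophage-like, 10.5, 7.66, 54.7 and 34.2 in FAP/fibroblast-like and 17.5, 12.2, 32.9 and 19.9 in endothelial-like cells, again with no overlap. In FAP/fibroblast-like cells Nr4a1 passed the minimum level only through its diaphragm values. Egr2 and Egr3 were sparse, at no more than 28.1 CPM in any of the 3 classes, and Nr4a2 and Nr4a3 at no more than 19.4.

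The KLF factors split by class. Klf2 keeps endothelial cells quiescent under flow and also restrains macrophage activation. It was at 183, 121, 569 and 531 CPM in macrophage-like cells, with ratios of 3.12 (2.98 to 3.26) and 4.40 (4.11 to 4.70), but at 723, 635, 990 and 617 in endothelial-like cells, with ratios of 1.37 (1.31 to 1.43) and 0.972 (0.929 to 1.02). In FAP/fibroblast-like cells Klf2 was at 56.2, 47.9, 150 and 92.9 CPM. Klf4, a relative with similar roles, was at 99.3, 67.5, 240 and 198 CPM in macrophage-like, 98.3, 59.4, 133 and 137 in FAP/fibroblast-like and 249, 241, 409 and 280 in endothelial-like cells. Klf6 was at 484, 383, 910 and 1121, then 155, 156, 243 and 200, then 403, 361, 434 and 349 CPM in those classes. The 2 endothelial-like muscles overlapped for Klf2 and Klf6 and not for Klf4. Klf10, induced by TGF-beta, had ratios between 0.745 and 1.40 and was called in no setting.

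Dual-specificity phosphatases switch off the MAP kinases that induce this set. Dusp1 was at 210, 170, 690 and 636 CPM in macrophage-like, 75.4, 61.1, 308 and 208 in FAP/fibroblast-like and 192, 137, 367 and 236 in endothelial-like cells, with the muscles apart in each class. Its ratios were 3.28 (3.15 to 3.42) and 3.73 (3.52 to 3.95) in macrophage-like and 4.09 (3.85 to 4.34) and 3.40 (3.21 to 3.60) in FAP/fibroblast-like cells. Dusp2 is known as a phosphatase of immune cells, and in these data it was at 27.2, 16.8, 74.6 and 27.4 CPM in macrophage-like cells but at 0.0935 to 0.613 CPM in FAP/fibroblast-like cells. It was not confined to macrophage-like cells among the 3 classes: endothelial-like cells had 4.76, 3.97, 34.6 and 17.7 CPM. After every cell was thinned to 2000 UMIs, 0 to 0.133% of FAP/fibroblast-like cells held a Dusp2 UMI, against 2.11% to 9.22% of macrophage-like cells. The count of 0, among 1337 cells of the mdx5cv/Ccr2-/- quadriceps, allows a share of up to 0.224%. Dusp5 stayed below the minimum level.

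Zfp36 (tristetraprolin) and Zfp36l1 bind AU-rich elements and destroy short-lived mRNAs, including those of other members, and Btg1 and Btg2 recruit the deadenylase and slow the cell cycle. Zfp36 was at 327, 211, 673 and 873 CPM in macrophage-like, 42.0, 25.4, 90.6 and 74.7 in FAP/fibroblast-like and 85.1, 59.1, 104 and 132 in endothelial-like cells. The muscles did not overlap, and its ratio was larger in mdx5cv/Ccr2-/- than in mdx5cv in each class: 4.14 against 2.06, 2.94 against 2.16 and 2.24 against 1.23. Btg2 was at 283, 210, 760 and 658 CPM, then 61.0, 53.3, 270 and 175, then 243, 233, 405 and 333 in the same classes. Zfp36l1 and Btg1 moved less, with ratios of 1.04 to 2.55 and 1.16 to 1.63.

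Among the other feedback and stress genes, Ppp1r15a (GADD34), which restarts translation after stress by directing a phosphatase to eIF2-alpha, was called higher in all 6 settings. It was at 111, 78.9, 242 and 230 CPM in macrophage-like, 27.8, 25.8, 74.9 and 57.5 in FAP/fibroblast-like and 37.0, 34.3, 98.8 and 74.7 in endothelial-like cells. Ier3, which protects cells from apoptosis, had its highest ratio in macrophage-like cells of mdx5cv/Ccr2-/- at 5.35 (4.87 to 5.88), from 56.9 to 304 CPM. Ier2 was at 90.8, 74.8, 201 and 149 CPM, then 78.7, 102, 220 and 166, then 126, 117, 213 and 174, with no overlap between muscles. Socs3, the feedback inhibitor of cytokine signalling through STAT3, differed mainly in macrophage-like cells: 27.4, 32.6, 93.4 and 108 CPM there, against 65.4, 42.6, 86.0 and 52.7 in FAP/fibroblast-like and 50.3, 53.7, 76.6 and 86.1 in endothelial-like cells. The Socs3 values of the muscles overlapped in FAP/fibroblast-like cells. Phlda1 was called in the 4 settings in which it was measured, with ratios of 2.62 to 3.77. Gadd45b, a sensor of genotoxic and cytokine stress, was called in both endothelial-like settings, at 11.4, 9.85, 31.6 and 32.5 CPM, and in macrophage-like cells of mdx5cv. In endothelial-like cells it passed the minimum level only through its diaphragm values.

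To keep the mix of classes out of the comparison, the log2 ratios of the 3 classes were averaged for each gene measured in all 3. In mdx5cv the median of the 26 members so measured was 1.11 (1.02 to 1.20), with 14 of 26 at least 2-fold higher, against 32 of 3860 genes overall (0.829%). The 5 highest were Fos (2.03), Atf3 (1.88), Egr1 (1.74), Fosb (1.62) and Dusp1 (1.52), and the 5 lowest Klf6 (0.55), Zfp36l1 (0.44), Btg1 (0.40), Fosl2 (0.29) and Klf10 (0.03). In mdx5cv/Ccr2-/- the median of 25 members was 0.84 (0.69 to 1.02), with 10 of 25 at least 2-fold higher, against 24 of 3984 genes (0.602%). Its 5 highest were Fos (1.71), Zfp36 (1.5), Dusp1 (1.44), Junb (1.41) and Ier3 (1.36), and its 5 lowest Klf6 (0.61), Btg1 (0.53), Ier5 (0.53), Klf10 (0.10) and Fosl2 (0.02). Fos and Dusp1 stood in the first 5 of both, and Klf6, Btg1, Fosl2 and Klf10 in the last 5 of both.

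Other gene lists placed the members in context. Heat shock genes, which are induced by unfolded protein and by warming, were also higher in the diaphragm: averaged over classes, 6 of 15 were at least 2-fold higher in mdx5cv (median 0.86) and 5 of 15 in mdx5cv/Ccr2-/- (median 0.63). Their 3 highest in mdx5cv were Hspb1 (1.86), Hspa1a (1.66) and Hsph1 (1.64), and their 3 lowest Hspd1 (0.23), Chordc1 (0.14) and Hspa5 (0.06). Of 35 further early response genes, 3 of 16 measured were at least 2-fold higher in mdx5cv (median 0.59; Nfkbiz 1.08, Cebpd 1.0 and Hes1 1.0 the highest, Sertad1 0.15, Sgk1 0.14 and Zfp36l2 0.01 the lowest) and 3 of 17 in mdx5cv/Ccr2-/- (median 0.72). Kinases and transcription factors upstream of the members did not share the difference. None of 13 and 15 measured was 2-fold higher, and their medians were -0.19 and 0.08, with Atf2 (0.14), Elk3 (0.10) and Creb1 (0.06) the highest in mdx5cv and Mapkapk2 (-0.22), Rps6ka3 (-0.31) and Map2k3 (-0.32) the lowest. The summed level of the heat shock list in macrophage-like cells was 5469, 5352, 11898 and 10830 CPM. Its part in the difference of the members was not tested.

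**Figure D3:**
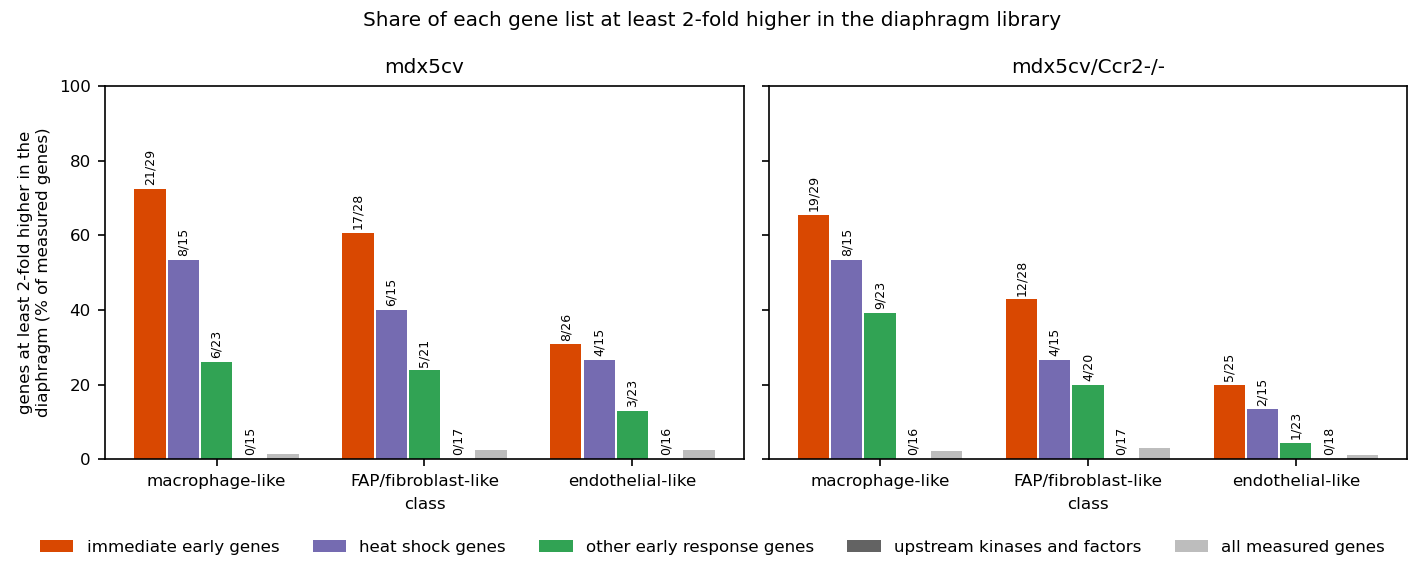
Percentage of measured genes at least 2-fold higher in the diaphragm, for 4 gene lists and for all measured genes, in 3 classes and 2 genotypes, with the count of genes over each bar. Of the lists shown, immediate early genes have the tallest bar in each setting, from 21 of 29 to 5 of 25. All measured genes stay at 2.86% or below. The myofibre and red cell lists, with few measured genes, are not shown. In endothelial-like cells 4 of 4 measured genes of each were higher in mdx5cv, and 0 of 5 and 0 of 1 in mdx5cv/Ccr2-/-.

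RNA of cells that should be absent from these classes also varied between libraries. A list of 10 myofibre genes summed to 105, 136, 176 and 101 CPM in macrophage-like, 24.2, 72.2, 167 and 85.9 in FAP/fibroblast-like and 58.2, 260, 370 and 120 in endothelial-like cells. In each class it was highest in the mdx5cv diaphragm. A list of 6 red cell genes was at 39.4, 64.8, 2941 and 27.2 CPM in endothelial-like cells and at no more than 104 CPM in the other 2 classes. The median share of mitochondrial UMIs was 3.98%, 4.14%, 3.88% and 4.45% in macrophage-like, 3.17%, 3.32%, 3.19% and 3.30% in FAP/fibroblast-like and 4.09%, 4.54%, 4.95% and 6.06% in endothelial-like cells. The part of these in the members' ratios was not tested.

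Depth was examined directly. When each cell was thinned to 2000 UMIs before summing, the median log2 ratios over members in macrophage-like cells were 1.06 in mdx5cv and 1.24 in mdx5cv/Ccr2-/-. Restricting the cells to those with 3000 to 8000 UMIs, a choice made after seeing the data, gave 0.79 and 1.32 in macrophage-like cells, with 11 members called higher in mdx5cv in place of 21. In FAP/fibroblast-like cells the same restriction gave 1.0 and 0.47.

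The same comparison can be made by the share of cells with a UMI. At 2000 UMIs per cell, a Fos UMI was found in 48.6% (45.5 to 51.7) and 41.4% (38.0 to 44.9) of macrophage-like cells in the mdx5cv and mdx5cv/Ccr2-/- quadriceps, and in 72.3% (70.0 to 74.5) and 67.2% (62.4 to 71.7) in the diaphragm. Before thinning the shares were 75.5%, 66.7%, 83.8% and 82.8%. In FAP/fibroblast-like cells the thinned shares were 11.0%, 10.5%, 41.2% and 28.1% (33.9%, 32.8%, 58.3% and 50.5% before), and in endothelial-like cells 7.46%, 5.25%, 22.6% and 15% (12.6%, 10.1%, 25.2% and 22.2% before). Thinning left out 16 to 100 macrophage-like, 24 to 212 FAP/fibroblast-like and 164 to 326 endothelial-like cells per library. No class here is known to lack Fos, so the share that free RNA gives cannot be read from it. The Dusp2 share of FAP/fibroblast-like cells given above cannot stand in for it. In macrophage-like cells Dusp2 was at only 16.8 to 74.6 CPM, against 401 to 1492 for Fos.

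The fraction of a cell's UMIs that came from the 35 genes, at 2000 UMIs per cell, shifted as a whole. In macrophage-like cells its median was 0.550%, 0.450%, 1.35% and 1.25%, and the lower quartile of the mdx5cv diaphragm (0.8%) lay above the medians of both quadriceps libraries. FAP/fibroblast-like cells had medians of 0.250%, 0.250%, 0.700% and 0.5%, and endothelial-like cells of 0.4%, 0.4%, 0.600% and 0.450%. A median of 7, 6, 12 and 11 of the 35 genes was detected per macrophage-like cell. Cells with no member UMI at all made up 1.37%, 1.49%, 0% and 0.245% of macrophage-like cells at that depth, where 0 of 1583 cells in the mdx5cv diaphragm allows a share of up to 0.19%.

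**Figure D4:**
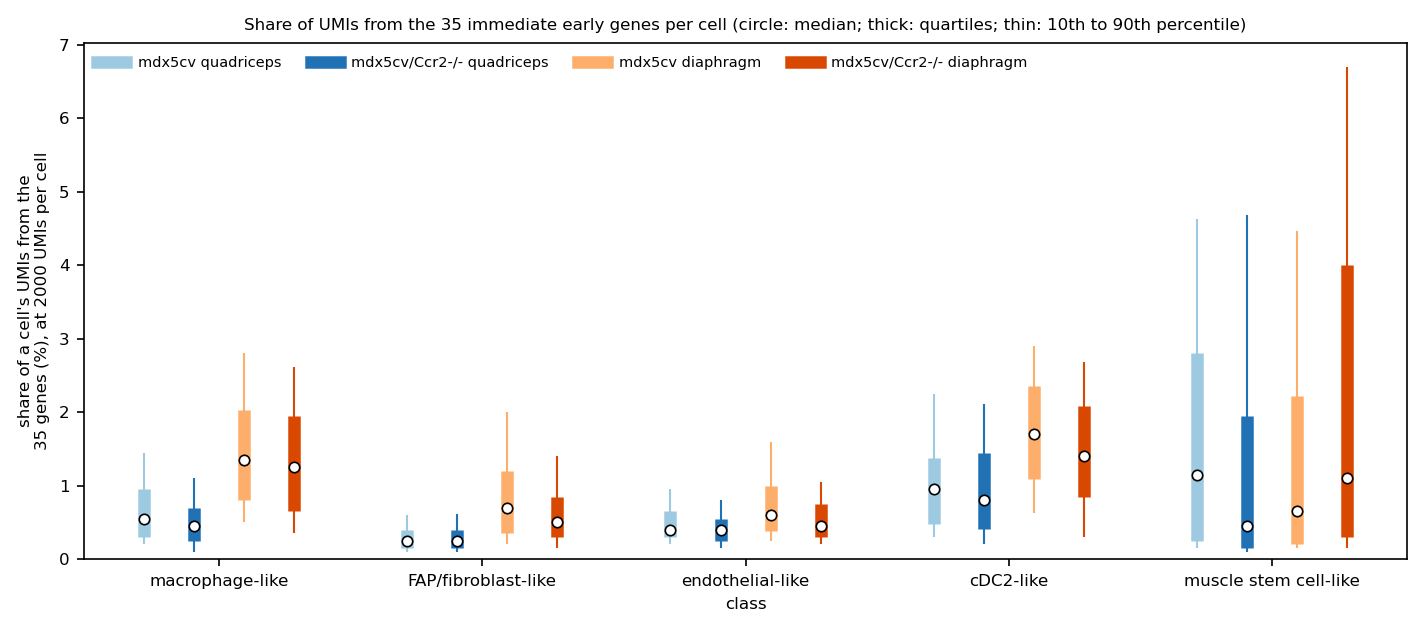
Percentage of a cell's UMIs from the 35 genes at 2000 UMIs per cell, by class and library (circle median, thick bar quartiles, thin line 10th to 90th percentile). Medians are higher in both diaphragm libraries than in both quadriceps libraries for macrophage-like, FAP/fibroblast-like, endothelial-like and cDC2-like cells, and muscle stem cell-like cells spread most widely in all 4 libraries.

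Cells with and without a Fos UMI were compared for other members. Among FAP/fibroblast-like cells of the mdx5cv diaphragm at 2000 UMIs, Egr1 was found in 76.4% (74.7 to 78.0) of cells with a Fos UMI and 45.6% (44.0 to 47.2) of those without. In the mdx5cv quadriceps the shares were 51.9% (42.0 to 61.7) and 18.4% (15.8 to 21.1), so UMIs of both genes also shared cells in the quadriceps. In macrophage-like cells Atf3 was found in 39.4%, 32.6%, 58.0% and 45.6% of Fos-positive cells and 23.2%, 19.9%, 38.7% and 32.1% of Fos-negative cells. Cells of 1 library are not replicates, and these shares describe the libraries.

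Smaller classes were looked at for the same genes. In cDC2-like cells, conventional dendritic cells (95 to 237 per library), 11 of 34 members were called higher in the mdx5cv diaphragm (background 1.48%) and 10 of 34 in the mdx5cv/Ccr2-/- one (0.903%), with median log2 ratios of 0.77 and 0.63. Muscle stem cell-like cells (93 to 214 per library) already had high levels in the quadriceps: Fos at 1270 and 875 CPM and Egr1 at 1312 and 1085. In mdx5cv their median log2 ratio was 0.08, with 2 of 28 members called higher (Atf3 and Klf2; background 1.28%), and Jun was lower in the diaphragm at 0.749 (0.707 to 0.793). In mdx5cv/Ccr2-/- it was 0.74, with 11 of 29 called (background 0.691%). The spread between single cells was wide: the share of UMIs from the 35 genes had a median of 1.15%, 0.450%, 0.650% and 1.10% and a 90th percentile of 4.63%, 4.68%, 4.47% and 6.70%. Between 37 and 87 muscle stem cell-like cells per library sat at the limit of the marker gate.

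The macrophage-like and other classes are mixtures, so the comparison was repeated in marker-defined subsets, also chosen after seeing the data. Macrophage-like cells with a UMI of Folr2, Cd163 or Lyve1, genes of long-lived resident macrophages, had median log2 ratios of 1.47 and 1.66 in the 2 genotypes, and those without had 0.84 and 1.06. FAP/fibroblast-like cells with a UMI of Pi16 or Dpp4, genes of a progenitor-like fibroblast state, had 1.29 and 0.71, and those without 1.29 and 0.91. Endothelial-like cells with a UMI of the capillary genes Rgcc, Car4 or Gpihbp1 had 0.74 and 0.57. Those without had 0.38 in mdx5cv (159 and 193 cells) and -0.10 in mdx5cv/Ccr2-/- (115 and 297 cells). In the latter, 8 of 24 members had a log2 ratio above 0, where the median of all genes was 0.05.

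Within a library, and so with no difference between libraries involved, the members differed by class. Whether handling acted equally on the classes was not tested. Only the 3 main classes are ranked here, and muscle stem cell-like cells of both quadriceps libraries had higher Fos and Egr1 levels than any of them in the same library. Of the 35 genes, 17 were highest of the 3 in macrophage-like cells in all 4 libraries, among them Fos, Junb, Atf3, Nr4a1, Dusp1, Zfp36, Btg1 and Rhob. Egr1, Egr3 and Phlda1 were highest of the 3 in FAP/fibroblast-like cells, and Klf2, Klf4 and Klf10 in endothelial-like cells, in each library. Fos in macrophage-like cells of the mdx5cv quadriceps was 7.52 times (6.87 to 8.24) its endothelial-like level, and Klf2 in endothelial-like cells was 12.9 times (12 to 13.8) its FAP/fibroblast-like level there and 6.60 times (6.32 to 6.89) in the mdx5cv diaphragm. Egr1 in FAP/fibroblast-like cells was 2.83 to 4.84 times the lowest class, which was macrophage-like in the quadriceps and endothelial-like in the diaphragm.

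The second question was what the loss of Ccr2 changed. In the 3 main classes the members' median ratios between genotypes were nearer to 1 than those between muscles. Muscle stem cell-like cells differed, with genotype medians of -0.32 in the quadriceps and 0.38 in the diaphragm on the log2 scale, against a muscle median of 0.08 in mdx5cv. In the quadriceps no member was called 2-fold higher or lower in any of the 3 classes: 0 of 28, 0 of 26 and 0 of 23, where the background was 0.891%, 0.682% and 0.218% higher and 0.650%, 0.938% and 0.151% lower. With cells of 3000 to 8000 UMIs, 2 members were higher in FAP/fibroblast-like cells. At a fold of 1.5, 3 were lower in macrophage-like cells and 3 in FAP/fibroblast-like cells. The median log2 ratios of mdx5cv/Ccr2-/- to mdx5cv were -0.37 in macrophage-like, -0.03 in FAP/fibroblast-like and -0.15 in endothelial-like cells. In macrophage-like cells Ier3 was at 0.607 (0.552 to 0.667), Klf2 at 0.662 (0.620 to 0.707) and Zfp36 at 0.644 (0.613 to 0.677), while Fosb was at 1.11, Socs3 at 1.19 and Gadd45g at 1.26. Averaged over classes the highest were Jund (0.10), Fosl2, Gadd45g and Ier2 (each 0.00) and Zfp36l1 (-0.07), and the lowest Zfp36 (-0.58), Klf4 (-0.42), Dusp1 (-0.35), Junb (-0.34) and Klf2 (-0.32).

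In the diaphragm the members' medians were below 0 in mdx5cv/Ccr2-/- in the 3 main classes. In muscle stem cell-like cells (93 in mdx5cv/Ccr2-/- and 199 in mdx5cv) the median was above 0. In the main classes no member was called higher (background 1.14%, 0.0526% and 0.0663%), and 2 of 30 were called lower in macrophage-like cells (Dusp2 and Gadd45b; background 0.793%), 0 of 29 in FAP/fibroblast-like cells (0.158%) and 2 of 29 in endothelial-like cells (Atf3 and Egr1; 0.796%). Dusp2 was at 74.6 CPM in the mdx5cv diaphragm and 27.4 in the mdx5cv/Ccr2-/- one, a ratio of 0.367 (0.303 to 0.442), and Gadd45b at 343 and 165, a ratio of 0.481 (0.445 to 0.520). In endothelial-like cells Atf3 had a ratio of 0.415 (0.340 to 0.504) and Egr1 of 0.431 (0.383 to 0.484). The median log2 ratios were -0.21, -0.41 and -0.33. In FAP/fibroblast-like cells Fosb was at 0.486 (0.464 to 0.509), Atf3 at 0.493 (0.469 to 0.518) and Egr1 at 0.553 (0.544 to 0.561). The plain ratios of Fosb and Atf3 were past 2-fold, but not after 5 CPM was added to each side for the call. In that class 26 of 29 members had a ratio interval below 1 and 0 above. At a fold of 1.5, 3 members were lower in macrophage-like, 11 in FAP/fibroblast-like and 9 in endothelial-like cells. The shares of all genes for these counts are not given. Averaged over classes, with a median of -0.31 (-0.44 to -0.20), the lowest were Atf3 (-0.84), Egr1 (-0.75), Fosb (-0.68), Nr4a1 (-0.62) and Gadd45b (-0.49), and the highest Zfp36 (0.15), Zfp36l1 (0.11), Klf10 (-0.01), Klf6 (-0.10) and Socs3 (-0.10). The heat shock list also had medians below 0 in the diaphragm, at -0.08, -0.40 and -0.22 in the 3 classes. In the quadriceps its medians were 0.05 in macrophage-like and -0.32 in FAP/fibroblast-like cells, where the members had -0.37 and -0.03. Averaged over classes, the quadriceps medians were -0.14 for heat shock genes and -0.15 for the members. The part of the heat shock list was not tested. With 1 library per genotype in each muscle, differences of this size have no replicate check.

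Some genes overlap a neighbour in the annotation. In that of GENCODE M21 (GRCm38), genes on the opposite strand that are also in the count matrices overlap Jun, Junb, Jund, Dusp1, Dusp5, Zfp36, Phlda1, Csrnp1 and Ppp1r15a, while AC122252.1 overlaps Dusp1 and Cx3cr1 overlaps Csrnp1 on the same strand. How reads in such overlaps were assigned is not stated, and their part in the counts was not tested.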

How the data were processed

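The authors deposited raw UMI counts for each gene and barcode of 4 libraries, not normalised. Per the file headers the matrices come from Cell Ranger 6.1.2, and the submitters' processing notes name mm10 as the build. The sources used here give neither the annotation release nor the handling of intronic reads. Barcodes stayed if they had 500 UMIs or more, 300 genes or more and no more than 15% mitochondrial UMIs, after which the highest Scrublet scores (scanpy 1.11.5) were removed at 0.8% per 1000 deposited barcodes, an assumption about loading. That left 28569 of 33554 barcodes.

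A cell took the class of which it held UMIs of the most distinct markers, with at least 3 of 7 and at least 2 more than of any other of 14 classes. Of the cells, 25845 were gated, 22074 of them in the 3 main classes. UMIs were summed by library and class and scaled to the total of the same cells (CPM). Intervals are exact Poisson for a level, exact conditional binomial (Clopper-Pearson) for a ratio and exact binomial for a share. They cover counting error only, and bounds of a median or mean log2 ratio are the same summary of the genes' bounds. The ratio function was tested on simulated data. Python 3.11.15, numpy 2.4.6, scipy 1.17.1 and pandas 2.3.3 were used, and edgeR 4.0.16 only for TMM factors as an alternative scaling.

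The genes named are the members past 2-fold in a main class, the 5 highest and 5 lowest by class-averaged ratio in each comparison, 14 members in every library and class, and the 3 highest and 3 lowest of the other lists measured. Other members and the classes beyond the 3 were named after their values were seen. The members, the lists and the comparisons were chosen with earlier results of these data known.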

Additional observations from a re-analysis of the deposited data

Results flagged for a closer look

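Some members differed in opposite directions in the 2 genotypes or the 2 muscles, by at least 1.25 times each way and with both counting intervals clear of 1. None of these differences was tested, since each rests on 1 library per group. Between muscles, Egr3 in FAP/fibroblast-like cells had a diaphragm to quadriceps ratio of 1.31 in mdx5cv and 0.530 in mdx5cv/Ccr2-/-. It was a sparse gene there, at 14.8 to 28.0 CPM.

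Between genotypes, the ratio of mdx5cv/Ccr2-/- to mdx5cv in FAP/fibroblast-like cells was above 1 in the quadriceps and below 1 in the diaphragm for several members. It was 1.38 and 0.598 for Fos, 1.27 and 0.751 for Jun, and 1.43 and 0.577 for Egr3. The values were 1.29 and 0.756 for Ier2, and 1.27 and 0.682 for Ier3.

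Zfp36 went the other way in both other classes. Its ratio was 0.644 in the quadriceps and 1.30 in the diaphragm in macrophage-like cells, and 0.695 and 1.27 in endothelial-like cells.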

How the results depend on the processing

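The members' counts and medians in the 3 main classes and their average were recomputed under other settings of the cell filter, doublet removal, gate, scaling, summing, pseudocount, minimum level and fold, and in 2 cell subsets chosen after seeing the data. The cDC2-like and muscle stem cell-like classes and the other lists were not. No called value reversed. Averaged over classes, 47 medians stayed within the genes' counting bounds and 1 did not, and 101 counts stayed within 1.5 times and 3 did not. The mdx5cv diaphragm to quadriceps median was 0.99 with no minimum level. At a fold of 1.5, 21 members were higher in the mdx5cv/Ccr2-/- diaphragm, and 4 were lower than in the mdx5cv diaphragm, where thinning to 2000 UMIs gave 1. Within single classes, 121 medians and 289 counts stayed within these limits, and 23 of each did not. Cells of 3000 to 8000 UMIs gave the lowest macrophage-like median in mdx5cv (0.79). The cause of these changes was not tested. No paired analysis was possible because each group has 1 library. Depth limits the rarer members, 5 of which passed the minimum in none of the muscle settings.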
